A study of Homo sapiens with 24 samples.

Results

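HepG2, a human hepatocellular carcinoma line, was treated with decitabine together with GSK-126 (the combination) or with decitabine alone, and the question was what GSK-126 adds to decitabine. The comparison uses 4 of the 24 libraries of the series, chosen by cell line and treatment, and covers every gene and repeat subfamily that passed a filter on low values. The combination cells were dosed each day with 5-Aza-CdR, which is decitabine, at 100 nM and with GSK-126 at 500 nM. The decitabine cells had the 5-Aza-CdR at 100 nM without GSK-126. Dosing lasted 3 days in both groups, harvest was on day 14, and each group had 2 libraries, A and B. No source used here says whether A and B were separate cultures, so the spread behind each p-value may be technical. HepG2 with GSK-126 alone and with DPBS, the vehicle (2 libraries each), and the SNU398 and SNU475 hepatocellular carcinoma lines serve for comparison. The labels call the genotype wild type. Total RNA was depleted of ribosomal RNA and read in single reads of 75 bases.

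Decitabine is built into DNA and traps DNA methyltransferases, so that methylation is lost as cells divide. GSK-126 blocks EZH2, the catalytic subunit of Polycomb repressive complex 2 (PRC2), which places the repressive mark H3K27me3 on histone H3. Some promoters that lose DNA methylation gain this mark, and germline genes of the cancer-testis group are a standard example of genes silenced by DNA methylation in liver and most other somatic tissues.

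Behind the values stood about 32600000 and 34400000 reads in the combination libraries, against 43800000 and 44600000 in the decitabine libraries, so low genes are measured less well in the combination. Replicates were close: the mean chi-square per gene of replicate read counts was 2.79 in the combination and 2.07 in decitabine, where 1 means counting noise alone. Hepatocyte identity markers were expressed in both groups, with summed levels of 7108 to 7120 scaled RPKM in the combination and 11230 to 11554 in decitabine. All 5 endothelial markers, and 6 of 7 gene entries of the immune-cell list, were below 1 in the 4 libraries. The immune-cell list summed to 5.66 to 5.82 in the combination and 6.34 to 6.48 in decitabine. It summed to 0.672 to 0.747 in GSK-126 and 1.36 to 1.66 in DPBS. Of the 7 stellate-cell and fibroblast markers, 4 were below 1, and the list summed to 22.1 to 22.4 in the combination and 17.7 to 18.2 in decitabine. Levels are RPKM (reads per kilobase of gene, relative to library depth) scaled between libraries, and a change is the difference of log2(scaled RPKM + 0.5), combination minus decitabine, which understates the change of low genes.

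Adding GSK-126 changed 10807 of 19377 genes tested (55.8%) at an adjusted p under 0.05 in limma, with 5817 higher (30%) and 4990 lower (25.8%). Most of these changes were small. At least 2-fold differences numbered 200 higher (1.03%) and 252 lower (1.3%), and the median over all genes was 0.02. The 2-fold counts depend on the processing. Pseudocounts of 0.1 and 1 gave 575 and 103 higher and 545 and 104 lower, limma-voom on the recovered reads gave 1154 and 556, and the GC and length correction gave 149 and 103. Of the 200, 146 were protein-coding, as were 67 of the 252. Of the genes tested, 256 passed the filter through the combination libraries alone, and 32 of these are among the 200.

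The changes followed the base composition of the transcripts, which touches each result below. Across 13512 protein-coding genes, the Spearman correlation of the change with transcript GC content was 0.59, as a description across genes that are not independent. It was 0.09 for GSK-126 against DPBS in HepG2, -0.01 for the combination against decitabine in SNU398 and -0.01 in SNU475. Of 5 equal groups of genes by GC, the lowest had a median change of -0.25 and the highest 0.26. Both combination libraries stood apart in this from the other HepG2 libraries. Their deviation from the line mean had correlations to GC of 0.64 and 0.54, against -0.10 and -0.13 in decitabine. The correlations were -0.30 and -0.17 in GSK-126 and -0.36 and -0.43 in DPBS. The line mean includes the combination libraries themselves. Whether treatment or library preparation gave this trend was not tested, and the 2 cannot be told apart here. Counts for the lists below are therefore also given with a GC correction, which subtracts the trend from each library. With it, 10188 genes were called (54.8%), and 5353 were higher (28.8%) and 4835 lower (26%) of 18605 with a GC value, and the 2-fold counts were 137 and 144. The trend was fitted without genes of low mean level but subtracted from all. A gene near 0 can therefore take a corrected change from the fitted curve alone.

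**Figure D1:**
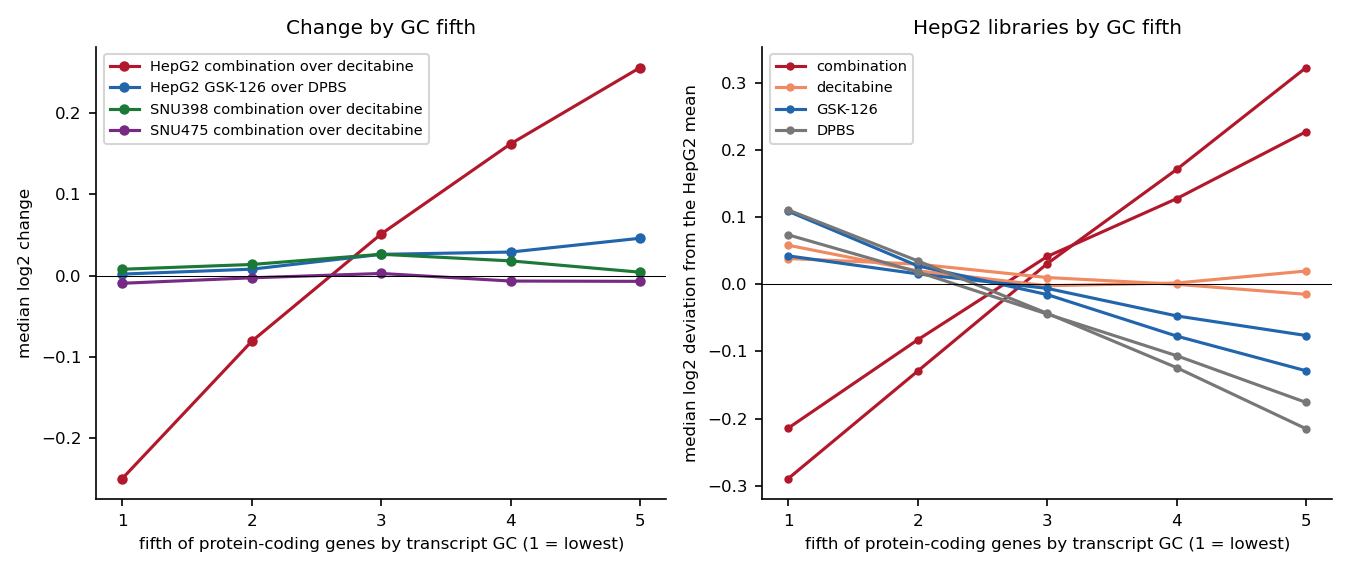
Left, median log2 change (y axis) of protein-coding genes in 5 equal groups by transcript GC content (x axis, lowest to highest) for 4 comparisons, and right, the same for the deviation of each HepG2 library from the mean of the line. The HepG2 combination against decitabine climbs from -0.25 to 0.26 over the 5 groups, the other 3 comparisons stay between -0.01 and 0.05, and the 2 combination libraries lie apart from the other HepG2 libraries.

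The gene that gained most was SPINK1, a secreted trypsin inhibitor known as an acute-phase and tumour marker (chr5:147204131-147211349, hg19). It stood at 4.48 and 5.65 scaled RPKM in the combination libraries, against 0.563 and 0.573 in the decitabine libraries. Its change was 2.37 ± 0.10 (SE, adjusted p 1.8e-10), and the groups did not overlap. PLA2G2A, a secreted phospholipase of the acute-phase response (chr1:20301925-20306932), had 157 and 151 in the combination and 37.5 and 38.0 in decitabine. That is a change of 2.01 ± 0.05 (adjusted p 1.4e-12). EDN1, which encodes the vasoconstrictor endothelin, had 8.46 and 8.10 in the combination and 1.89 and 1.68 in decitabine, a change of 1.94 ± 0.09 (adjusted p 3.6e-10). CYR61, a matrix-associated protein and standard target of the YAP coactivator, had 54.7 and 54.5 in the combination and 16.3 and 15.2 in decitabine (1.76 ± 0.04, adjusted p 3e-13). In each of these 4 genes both combination libraries lay above both decitabine libraries, as the rule for choosing them required. The same separation, above or below, held for each other gene whose combination and decitabine levels are given library by library here, except RN7SK. The rule also required it of the other highest and lowest changes, so it is no separate support for those genes.

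The other 10 of the 14 highest changes lay between 1.52 and 1.83. They were the translation factor EEF1A2, the integrin ITGA3, the adhesion molecule MCAM, the calcium-binding S100A6 and S100A9, the actin-binding TAGLN2, the cystatin CST1, the interferon-induced IFI27, the metalloprotease inhibitor TIMP1 and the pseudogene RP11-88I21.1. ITGA3 had 3.91 and 3.95 in the combination and 0.924 and 0.940 in decitabine. TIMP1 had 17.5 and 16.21 in the combination and 5.56 and 5.53 in decitabine. With the GC correction the 14 remained called, at 1.31 to 2.65. SPINK1, whose transcript has a GC content of 39.1%, then had the highest of these, 2.65.

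Among the 14 lowest changes, from -1.38 to -2.18, 6 genes were protein-coding. CD302, a lectin receptor (chr2:160625364-160654753), had 0.692 and 0.892 in the combination and 3.75 and 3.40 in decitabine. It fell by 1.66 on the log2 scale (SE 0.10, adjusted p 6e-09). MSMO1, a sterol demethylase of cholesterol synthesis, had 14.3 and 15.7 in the combination and 51.7 and 44.3 in decitabine (-1.64 ± 0.11, adjusted p 1.2e-08). ASPM, which organises spindle poles, had 1.42 and 1.61 in the combination and 5.30 and 4.94 in decitabine (-1.48 ± 0.06, adjusted p 6.3e-11). The organic anion transporter SLCO4C1 (-1.40), the T-cell costimulatory ligand TNFSF4 (-1.39) and IER3IP1 (-1.38), a membrane protein of the secretory pathway, were the others.

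The remaining 8 were long noncoding RNAs and pseudogenes. PWAR6, a noncoding RNA of the Prader-Willi imprinted region, had 0.783 and 0.763 in the combination and 3.56 and 3.18 in decitabine. The lowest value, that of the pseudogene GTF2IP1, rests on decitabine libraries that disagree, 5.48 and 2.70, against 0.516 and 0.418 in the combination, and near-identical copies share its reads. RP11-404G16.2 (-2.13), RP11-116D2.1 (-1.51), RP11-350F4.2 (-1.44), RP11-813N20.1 (-1.43), RP11-142L4.2 (-1.43) and RP11-391M20.1 (-1.40) completed them. Of the 14, 11 had a GC value, with a median of 38.1%, and these 11 remained called with the correction, at -1.06 to -1.82.

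**Figure D2:**
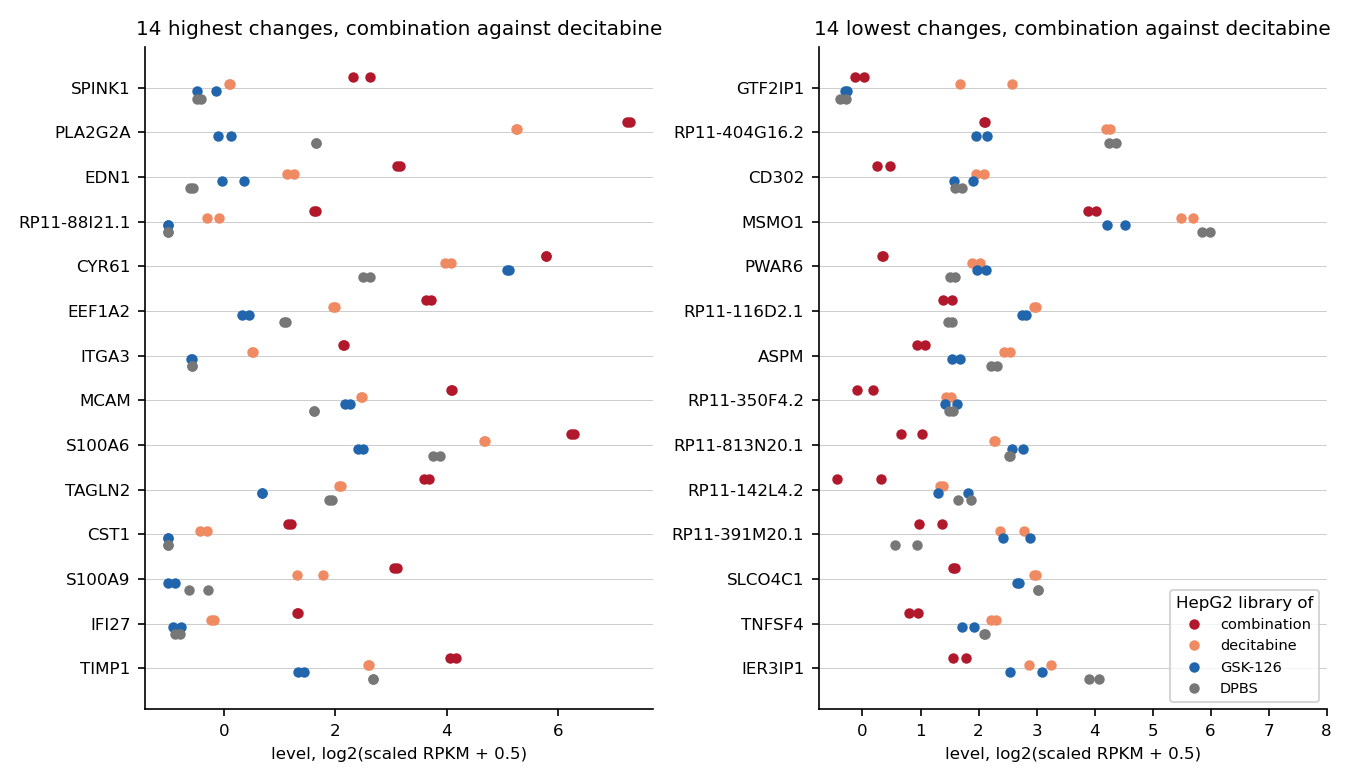
Level of each of the 14 genes with the highest (left) and the 14 with the lowest (right) change, as log2(scaled RPKM + 0.5) on the x axis, with 1 point for each of the 8 HepG2 libraries. Combination points (dark red) lie right of decitabine points (orange) on the left panel and left of them on the right panel, without overlap, as the rule for choosing them required.

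Among the drug targets and their partners, the changes lay between -0.60 and 0.29. EZH2 had 4.85 and 5.29 scaled RPKM in the combination and 6.08 and 6.05 in decitabine, a change of -0.24 ± 0.03 (adjusted p 3.1e-05), which is -0.09 with the GC correction. Its homologue EZH1 rose by 0.29. Among the other core PRC2 subunits, SUZ12 fell by 0.60 and EED by 0.21, and the EED change turned to 0.16 with the GC correction (adjusted p 0.06). The maintenance DNA methyltransferase DNMT1 (-0.10), the de novo enzymes DNMT3A (-0.27) and DNMT3B (-0.11), and UHRF1 (-0.14), which brings DNMT1 to replicating DNA, were slightly lower. Larger falls in the DNA methylation list came from HELLS, a chromatin remodeller needed for DNA methylation, at 1.68 and 1.97 in the combination and 4.87 and 4.36 in decitabine (-1.14), and from TET1, which oxidises methylcytosine (-1.01). Of 15 tested members of that list 2 were higher and 10 lower, beside 30% and 25.8% of all genes. With the GC correction 3 were higher and 9 lower. PRC2 subunits and H3K27 demethylases had 3 higher and 8 lower of 13, and the 8 became 5 without combination library A. With the GC correction 4 were higher and 6 lower, and the median was -0.03 in place of -0.19. Apart from EZH2 and EED, the changes of single genes in this paragraph are without that correction. RNA levels say nothing of enzyme activity or of either mark.

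Cancer-testis antigens, proteins normally made in germ cells, rose as a group. Of 58 gene entries 24 passed the filter, 1 of them through the combination libraries alone. Of the 24, 23 were higher and none lower, beside 30% and 25.8% of all genes, and GAGE12J was listed at 0 in all 4 libraries. The median change was 0.94, against 0.02 over all genes. MAGEA4, on the X chromosome (chrX:151080981-151093642), had 7.91 and 8.15 scaled RPKM in the combination and 2.59 and 2.61 in decitabine (1.46 ± 0.05, adjusted p 4.3e-11). MAGEC2 had 4.33 and 3.95 in the combination and 1.28 and 1.10 in decitabine (1.45 ± 0.07, adjusted p 2.7e-10). MAGEA6 had 3.08 and 2.99 in the combination and 1.08 and 0.980 in decitabine (1.21 ± 0.05, adjusted p 2e-10). The most abundant was PAGE1, with means of 23.97 in the combination and 12.2 in decitabine. With the GC correction 23 were still higher, at a median of 0.89. Reads of near-identical copies, such as MAGEA3 and MAGEA6 or PAGE2 and PAGE2B, may have been split between them.

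Without decitabine these genes were at low levels. In GSK-126 and DPBS cells the 24 members averaged at most 0.679 and 0.282 scaled RPKM, both in PAGE1, which was the 1 member called higher (0.59). The median change with GSK-126 alone was 0.01. The difference between the 2 effects was positive for 22 members and negative for 0, and for genes near 0 the pseudocount holds down the change without decitabine. The addition gave smaller changes in the other lines, with medians of 0.10 in SNU398 (5 of 24 higher) and 0.06 in SNU475 (6 higher, 1 lower). Of all genes, 12.5% were higher in SNU398, and 7.39% were higher and 10.9% lower in SNU475. The HepG2 change exceeded that of SNU398 for 23 members and that of SNU475 for 20. Germ-cell and meiosis genes, another list of DNA-methylated germline genes, had 9 of 15 higher and 1 lower in HepG2, beside 30% and 25.8% of all genes. Their median was 0.27, and with the GC correction 12 were higher and 0 lower (0.43). Among them were TDRD9, a helicase of the piRNA pathway (0.68), and REC8, a meiotic cohesin (0.61). Among the 146 protein-coding genes at least 2-fold higher, 16 (10.96%) lay on the X chromosome, as did 481 (3.50%) of all 13741 tested.

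Genes nearly silent without drugs were mostly higher where they were called. To keep the filter from setting the direction, they are counted here among genes that passed it without the 4 compared libraries, a restriction chosen after seeing the data. Of 2828 such genes with a mean below 0.1 in DPBS (small RNA genes left out), 783 were called (27.7%), beside 55.8% of all genes. Of these calls 752 were higher and 31 lower, while 30% of all genes were higher and 25.8% lower. At least 2-fold, 34 were higher and 1 lower. A gene near 0 in decitabine has little room to be lower, so the few lower calls are not read as a direction of these genes. Genes at 10 or more in DPBS split evenly, with 1110 higher and 1179 lower of 3114. With the GC correction the silent genes had 1119 higher and 357 lower, and the active ones 829 and 1275. The corrected counts of silent genes give no direction, since the curve was fitted without genes of low mean level and can shift genes near 0. HOX genes and developmental transcription factors, standard targets of PRC2, moved little. Of 34 HOX genes 5 were higher and 3 lower (median 0.07), and of 54 developmental factors 12 were higher and 3 lower (median 0.02). Both lists turn round with the GC correction, to 2 higher and 13 lower (median -0.11) and to 7 higher and 19 lower (median -0.10). Their transcripts are GC-rich, with median GC contents of 55.2% and 56.8%, against 48.6% for all protein-coding genes, so no direction is given for either. Members of these lists near 0 are also open to a shift from the curve alone.

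Early-response factors, which growth and stress signals switch on, had 28 of 29 higher and 0 lower, beside 30% and 25.8% of all genes. Their median was 0.57 (0.37 with the GC correction). The phosphatase DUSP5 had 9.71 and 8.38 scaled RPKM in the combination and 3.36 and 3.31 in decitabine, a change of 1.31 ± 0.07. The AP-1 subunits FOSL2 (0.98) and FOSL1 (0.96) followed. YAP targets had 20 of 29 higher and 4 lower, with a median of 0.36, and 19 and 4 with the GC correction (0.33). ANKRD1, a cardiac-type ankyrin protein, had 53.6 and 56.0 in the combination and 24.3 and 24.2 in decitabine (1.16). BIRC5, which also belongs to the mitotic programme, was lower (-0.43).

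S100 proteins, small calcium-binding proteins of epithelial and inflamed tissue, had 10 of 12 higher and 0 lower, beside 30% and 25.8% of all genes. Their median was 0.79. S100A6 had 77.2 and 75.0 in the combination and 25.1 and 25.4 in decitabine (1.58 ± 0.24, adjusted p 4.7e-05). S100A11 stood at 31.7 and 28.2 in the combination and 13.8 and 12.6 in decitabine (1.15). With the GC correction 10 were higher and 1 lower. Acute-phase proteins, made by hepatocytes in inflammation, had 12 of 23 higher and 2 lower, and beside SPINK1 and PLA2G2A the iron-binding LCN2 rose (1.38). After GC correction 11 were higher and 3 lower. SAA4 (-0.73) and the copper carrier CP (-0.57) fell. Epithelial genes had 19 of 29 higher and 6 lower, led by the protease inhibitor SPINT1 (1.35) and the keratins KRT19 (1.15) and KRT23 (1.15). The epithelial median of 0.29 became 0.10 with the GC correction, with 15 higher and 4 lower. KRT19, a marker of bile duct and progenitor cells, had 194 and 184 in the combination and 85.5 and 84.1 in decitabine. TIMP2, another metalloprotease inhibitor, had 18.9 and 18.6 in the combination and 8.12 and 7.96 in decitabine (1.17).

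Interferon-stimulated genes were higher in 23 of 39 cases and lower in 2, beside 30% and 25.8% of all genes. Their median was 0.23, and with the GC correction 29 were higher and 1 lower (median 0.35). IFI6, an inhibitor of apoptosis, had 34.6 and 32.7 in the combination and 13.7 and 12.4 in decitabine (1.34 ± 0.05, adjusted p 4.9e-11). IFI27 had 2.02 and 1.97 in the combination and 0.382 and 0.351 in decitabine (1.53). IFITM2, which blocks viral entry, rose by 0.93. EIF2AK2, the kinase PKR that senses double-stranded RNA, was lower (-0.61). MHC class I presentation genes had 17 of 21 higher and 1 lower, with HLA-B (0.67), HLA-C (0.64) and the immunoproteasome subunit PSMB9 (0.58) at the top. After GC correction 14 were higher and 1 lower. The HLA genes are close paralogues, whose reads may have been split. Chemokines and cytokines had 14 of 25 higher and 1 lower, and 15 and 1 of 23 with the GC correction. CXCL2, which attracts neutrophils, had 24.9 and 23.4 in the combination and 8.33 and 8.14 in decitabine (1.496), IL32 rose by 0.96 and LIF by 0.87, and the death ligand TNFSF10 fell by 0.77.

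CDK inhibitors stop the cell cycle. Of 8 tested 4 were higher and 2 lower, beside 30% and 25.8% of all genes. The median was 0.25, but -0.01 with the GC correction (3 higher, 2 lower) in this GC-rich list (58.1%), so no direction is given for the list. CDKN2B had 4.64 and 4.59 in the combination and 1.58 and 1.30 in decitabine (1.40 ± 0.06). CDKN2A, which shares its locus and is a known PRC2 target, had 2.46 and 2.25 in the combination and 0.953 and 0.897 in decitabine (1.0). CDKN1A, the p53 target p21, had 78.0 and 71.5 in the combination and 43.5 and 44.0 in decitabine (0.76). CDKN3, a mitotic phosphatase despite its name, was lower (-0.62), as was CDKN1B (-0.21). Of a list of tumour suppressors reported as methylated in liver cancer, 17 of 32 were higher and 2 lower, and 18 and 6 of 31 with the GC correction. They included SOCS3, a brake on cytokine signalling (1.47), and the growth-factor binder IGFBP7 (1.38), while APC (-0.48) and DAPK1 (-0.20) were lower.

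Genes of mitosis fell together. All 38 tested members of the mitosis and G2/M list were lower, beside 25.8% of all genes, with a median of -0.51. ASPM was the lowest. CENPE, a kinesin that moves chromosomes to the spindle equator, had 1.15 and 1.36 scaled RPKM in the combination and 3.65 and 3.39 in decitabine (-1.20 ± 0.05, adjusted p 1.8e-10). CENPF, a kinetochore protein, had 4.44 and 5.02 in the combination and 10.2 and 10.7 in decitabine (-1.07). These transcripts are GC-poor (median 42.6%), and with the GC correction the 38 were still lower, at a median of -0.43. Replication and G1/S genes changed less, with 26 of 40 lower and 2 higher (median -0.19). The DNA primase PRIM1 (-0.79), the polymerase subunit POLE2 (-0.65) and the clamp loader RFC3 (-0.60) were the lowest. After GC correction 32 were lower and 1 higher. E2F1, which drives entry into S phase, was slightly higher (0.14), but lower with the GC correction (-0.14).

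The promoters of 3 mitosis genes are shown because they carry both elements of the G2/M programme, the CCAAT box bound by NF-Y and the cell-cycle homology region (TTTGAA), through which the DREAM and MuvB complexes act. They are the 3 lowest changes of the list with both. The sequences are the 250 bases before the start site from RefSeq (GRCh38.p14), 5′ to 3′, and capitals mark each match on either strand (ATTGG and TTCAAA are the reverse complements). ASPM lies at chr1:197146670-197146919 on the minus strand, MKI67, the proliferation marker Ki-67 (change -1.004), at chr10:128126424-128126673 on the minus strand, and KIF11, a spindle kinesin (-0.95), at chr10:92592880-92593129 on the plus strand.
ASPM: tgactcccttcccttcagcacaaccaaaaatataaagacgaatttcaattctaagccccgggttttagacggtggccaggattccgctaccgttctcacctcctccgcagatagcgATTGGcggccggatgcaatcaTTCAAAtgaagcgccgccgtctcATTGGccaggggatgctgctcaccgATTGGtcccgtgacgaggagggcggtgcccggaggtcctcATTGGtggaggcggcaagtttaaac
MKI67: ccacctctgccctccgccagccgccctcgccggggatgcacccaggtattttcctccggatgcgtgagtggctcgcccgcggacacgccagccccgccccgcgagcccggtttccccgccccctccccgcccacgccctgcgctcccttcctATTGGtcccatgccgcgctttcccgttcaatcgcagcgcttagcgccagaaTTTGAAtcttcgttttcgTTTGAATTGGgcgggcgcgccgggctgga
KIF11: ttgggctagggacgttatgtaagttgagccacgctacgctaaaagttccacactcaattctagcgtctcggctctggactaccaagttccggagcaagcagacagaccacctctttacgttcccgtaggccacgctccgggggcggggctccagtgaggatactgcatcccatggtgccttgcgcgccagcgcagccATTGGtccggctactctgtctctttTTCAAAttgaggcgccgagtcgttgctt
Of 32 list members with a promoter in the table, 25 held CCAAT (78.1%) and 18 held TTTGAA (56.2%). Of all 27305 promoters there, 33.0% and 13.6% did, and of the 10928 of protein-coding genes tested, 34.8% and 8.67%. Among 34 replication and G1/S promoters, 17 held CCAAT (50%) and 1 held TTTGAA (2.94%). In MKI67 a TTTGAA and an ATTGG overlap. A match is a description of these bases and not a binding site.

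Cholesterol synthesis genes were the other group that fell almost as a whole, with 23 of 25 lower and 1 higher. Of all genes 25.8% were lower and 30% higher. The median of the list was -0.48, and -0.65 with the GC correction. MSMO1 was the lowest (chr4:166248775-166264312, hg19). SC5D, a sterol desaturase, had 3.16 and 3.63 in the combination and 10.02 and 8.35 in decitabine (-1.31 ± 0.09, adjusted p 2.8e-08). HMGCS1, the synthase that makes HMG-CoA, had 34.6 and 36.2 in the combination and 85.0 and 87.04 in decitabine (-1.27 ± 0.04, adjusted p 2.5e-11). Fatty acid synthesis genes had 14 of 20 lower and 4 higher, and the same counts of 19 with the GC correction. GPAM, which starts glycerolipid synthesis (-1.19), the elongase ELOVL6 (-1.02) and the desaturase SCD (-0.91) fell, and the acyltransferase AGPAT2 (0.64), the malic enzyme ME1 (0.56) and the elongase ELOVL1 (0.50) rose. SCD had 75.5 and 78.3 in the combination and 143 and 147 in decitabine. Transcripts of the cholesterol list have a median GC of 50.5%, close to that of all protein-coding genes.

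The promoters of the 2 cholesterol genes with the lowest change and a CCAAT box are given in the same way, since NF-Y acts with the sterol-sensing factor SREBP at many genes of this pathway. MSMO1 lies at chr4:165327419-165327668 on the plus strand and SC5D at chr11:121292521-121292770 on the plus strand (GRCh38.p14).
MSMO1: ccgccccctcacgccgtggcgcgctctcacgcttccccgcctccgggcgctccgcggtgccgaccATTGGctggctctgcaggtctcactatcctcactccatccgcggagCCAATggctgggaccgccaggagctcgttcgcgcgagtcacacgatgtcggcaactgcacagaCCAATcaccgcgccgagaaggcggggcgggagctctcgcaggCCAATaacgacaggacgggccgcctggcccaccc
SC5D: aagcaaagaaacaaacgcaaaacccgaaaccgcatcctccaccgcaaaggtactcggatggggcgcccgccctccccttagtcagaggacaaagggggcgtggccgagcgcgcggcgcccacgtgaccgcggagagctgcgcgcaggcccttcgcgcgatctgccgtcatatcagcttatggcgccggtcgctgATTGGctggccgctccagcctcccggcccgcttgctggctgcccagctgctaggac
Of 18 list members with a promoter in the table, 15 held CCAAT (83.3%). TTTGAA was in 1 of the 18. Among cancer-testis promoters, CCAAT was in 5 of 21 (23.8%).

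Hepatocyte genes tended lower. Of 45 tested, 20 were lower and 3 higher (median -0.36), beside 25.8% and 30% of all genes. Several large changes were not called. ARG1, the last enzyme of the urea cycle (chr6:131894284-131905472, hg19), had 0.848 and 0.939 scaled RPKM in the combination and 2.82 and 3.11 in decitabine (-1.31 ± 0.05, adjusted p 4.9e-11). HAL, which breaks down histidine, had 1.90 and 2.14 in the combination and 5.18 and 5.21 in decitabine (-1.18). The fetal cytochrome CYP3A7 fell by 1.07. Vitronectin, VTN, was higher (0.33), as were ASS1 (0.27) and APOC2 (0.20), and none of these 3 was called with the GC correction, where the list had 0 higher and 20 lower. Hepatocyte transcription factors had 12 of 24 lower and 5 higher (15 and 3 of 23 with the GC correction), with ONECUT2 (-0.996), PROX1 (-0.84) and the bile acid receptor NR1H4 (-0.74) lowest and the stress-induced CEBPD (0.90) and CEBPB (0.63) highest. Of the 10 identity markers 1 was higher and 1 lower, although their summed level was lower in the combination.

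**Figure D3:**
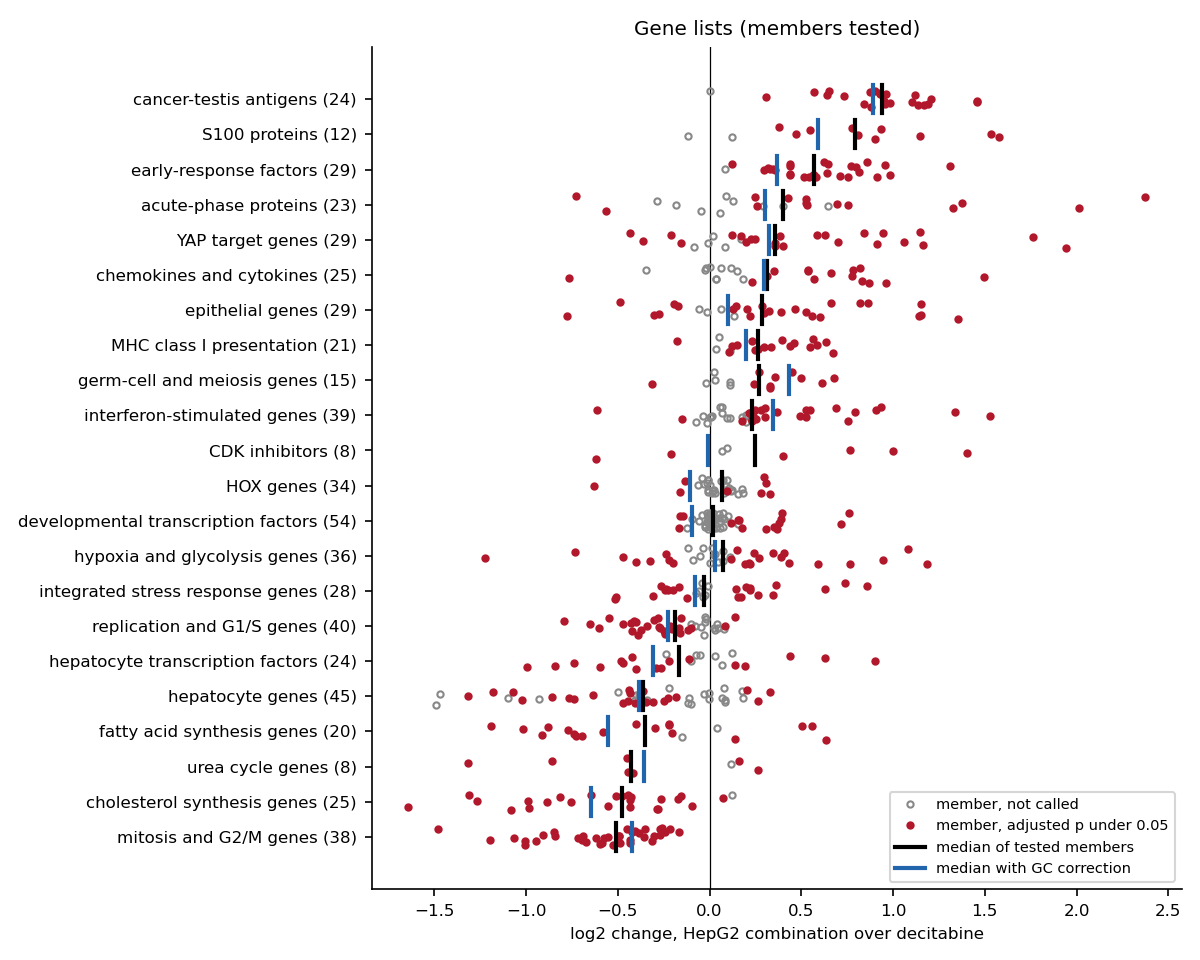
Log2 change, combination over decitabine (x axis), of each tested member of 22 gene lists (rows, with the number tested). Filled points passed the test, black bars are list medians and blue bars the medians with the GC correction, from 0.94 for cancer-testis antigens to -0.51 for mitosis genes without the correction. The blue bar lies on the other side of 0 from the black bar for HOX genes, developmental transcription factors and CDK inhibitors.

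Of 26 imprinted genes 11 were higher (42.3%) and 6 lower (23.1%), beside 30% and 25.8% of all genes, and 10 were higher and 8 lower with the GC correction. PHLDA2, which restrains placental growth, had 8.54 and 8.24 in the combination and 3.27 and 3.41 in decitabine (1.21). NDN had 2.80 and 2.71 in the combination and 1.07 and 1.25 in decitabine (0.97). The retrotransposon-derived PEG10, an oncofetal gene of liver cancer, had 187 and 190 in the combination and 402 and 411 in decitabine (-1.11 ± 0.02, adjusted p 1.4e-13). The long noncoding RNA KCNQ1OT1, transcribed from the opposite strand of KCNQ1, had 1.68 and 1.65 in the combination and 4.72 and 4.68 in decitabine (-1.26). Reads of such overlapping genes can be told apart by strand alone, and the strand setting used in counting is not given in the sources used here.

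Small RNA genes and other short genes were the class with the largest share of strong falls. Of 1473 genes named as small RNAs or shorter than 300 bases, 144 were at least 2-fold lower and 24 higher, beside 1.3% and 1.03% of all genes. SnoRNA genes, which guide chemical changes of ribosomal RNA, had 61 of 225 lower (27.1%) and 4 higher (1.78%), with a median of -0.43. The share lower is close to the 25.8% of all genes, of which 30% were higher. With the GC correction 54 of 217 were lower and 4 higher. Of the 225, 27 were at 0 in both combination libraries, 7 in both decitabine libraries, and 25 each in GSK-126 and DPBS. The part of the shallower depth of the combination in these falls was not tested. Spliceosomal snRNA genes had 42 of 197 lower (21.3%, below the share of all genes) and 5 higher (2.54%). The 42 became 32 of 184 with the GC correction, 24 with a length correction added, 26 with a filter at RPKM 1 and 22 with limma-voom. RNU5E-1, a copy of the U5 snRNA, had 9.16 and 6.86 scaled RPKM in the combination and 91.2 and 68.6 in decitabine (-3.24 ± 0.33, adjusted p 8.9e-07), with at least 25 reads behind each value. SNORA40 was listed at 0 in both combination libraries and at 4.83 and 2.90 in decitabine. MIR4712 had 0 and 0.804 in the combination and 7.21 and 4.199 in decitabine, and SNORD91B 1.12 and 0.347 in the combination and 5.94 and 8.64 in decitabine. Such genes are shorter than or close to the length of a library insert, and near-identical copies share reads.

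The highest small genes were RP1-290I10.5, at 3.60 and 3.99 in the combination and 0.526 and 0.931 in decitabine, the mitochondrial tRNA gene MT-TD, TMSB4XP6 and MIR320E. The 7SK RNA gene, RN7SK, had 11431 and 11921 in the combination and 11694 and 11668 in decitabine, without a call (adjusted p 1.0). MIR3648, MIR3687 and MIR663A, the first 2 of which lie within copies of the ribosomal RNA precursor, together took 6.61% and 6.25% of gene reads in the combination, against 3.46% and 3.30% in decitabine. These 4 genes were chosen after their values were seen. The part of this share in the other results was not tested.

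Set beside the effect of GSK-126 without decitabine, the addition differed in size and often in direction. GSK-126 against DPBS called 10194 genes (52.6%), 5998 higher (31%) and 4196 lower (21.7%). The 2 comparisons share no library. Of the 200 genes at least 2-fold higher on the addition, 45 (22.5%) were also higher with GSK-126 alone and 59 (29.5%) were lower. Of the 252 lower genes, 72 (28.6%) were also lower and 46 (18.3%) higher. At least 2-fold in both, 9 genes were higher (4.50% of the 200 and 3.64% of 247) and 21 lower (8.33% of the 252 and 4.68% of 449). The 247 and 449 are the genes at least 2-fold higher (1.27%) and lower (2.32%) with GSK-126 alone. The difference between the 2 effects, tested directly, was called for 10264 genes (53%), 25.1% positive and 27.9% negative, with 601 (3.1%) at least 2-fold positive and 735 (3.79%) negative. Its Spearman correlation with transcript GC was 0.34. With the GC correction 5463 differences were positive and 4925 negative of 18605 genes, with 540 and 563 at least 2-fold. The balance of directions therefore depends on the correction. Differences by list are given without it throughout.

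The lists show where the effects parted. Replication and G1/S genes had a median of -0.19 on the addition and -1.52 with GSK-126 alone, where 40 of 40 were lower, and the difference was positive for 39. Mitosis genes had -0.51 on the addition and -1.13 alone, with 32 positive and 4 negative differences. Cholesterol synthesis genes had medians of -0.48 on the addition and -0.88 alone, with 11 positive and 6 negative differences. HMGCS1 changed by -1.27 on the addition and by -1.25 with GSK-126 alone, and the difference of -0.02 was not called (adjusted p 0.8). Hypoxia and glycolysis genes had medians of 0.07 on the addition and -1.23 alone, with 33 of 36 differences positive. On the addition 16 were higher and 8 lower, beside 30% and 25.8% of all genes, and 14 and 14 with the GC correction. SLC2A1, a glucose transporter, had 81.3 and 75.1 in the combination and 37.6 and 35.6 in decitabine, but 27.97 and 28.1 in GSK-126 and 44.1 and 42.6 in DPBS. EPO, the hormone erythropoietin, was lower in both, with 1.47 and 1.51 in the combination and 4.08 and 4.22 in decitabine, and 1.82 and 2.08 in GSK-126 and 14.6 and 13.8 in DPBS.

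Metallothioneins, which bind zinc and copper, had the highest median difference of the 45 lists, 2.22. MT2A had 14.4 and 12.2 in the combination and 6.81 and 5.10 in decitabine, but 0.656 and 0.629 in GSK-126 and 9.56 and 9.96 in DPBS. Its change was 1.10 on the addition and -3.17 alone, a difference of 4.27 (adjusted p 6e-12). Of 7 members 4 were higher on the addition, with or without the GC correction, and 5 were lower with GSK-126 alone. S100 proteins went the same way, with medians of 0.79 on the addition and -0.46 alone and 10 positive differences of 12. Integrated stress response genes, which amino acid shortage and other stresses induce, did the opposite. Of 28 tested, 12 were higher and 10 lower on the addition (median -0.03; 5 and 12 with the GC correction), while 26 were higher with GSK-126 alone (median 1.12), and 25 differences were negative. SLC7A11, the cystine transporter, had 1.68 and 1.83 in the combination and 2.85 and 2.58 in decitabine, against 15.8 and 14.6 in GSK-126 and 1.87 and 2.04 in DPBS. Early-response factors were also higher with GSK-126 alone, in 26 of 29 cases (median 0.62), with 8 positive and 12 negative differences. CYR61 and ANKRD1 rose in both settings. CYR61 changed by 1.76 on the addition and 2.54 alone, and ANKRD1 by 1.16 and 1.81.

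**Figure D4:**
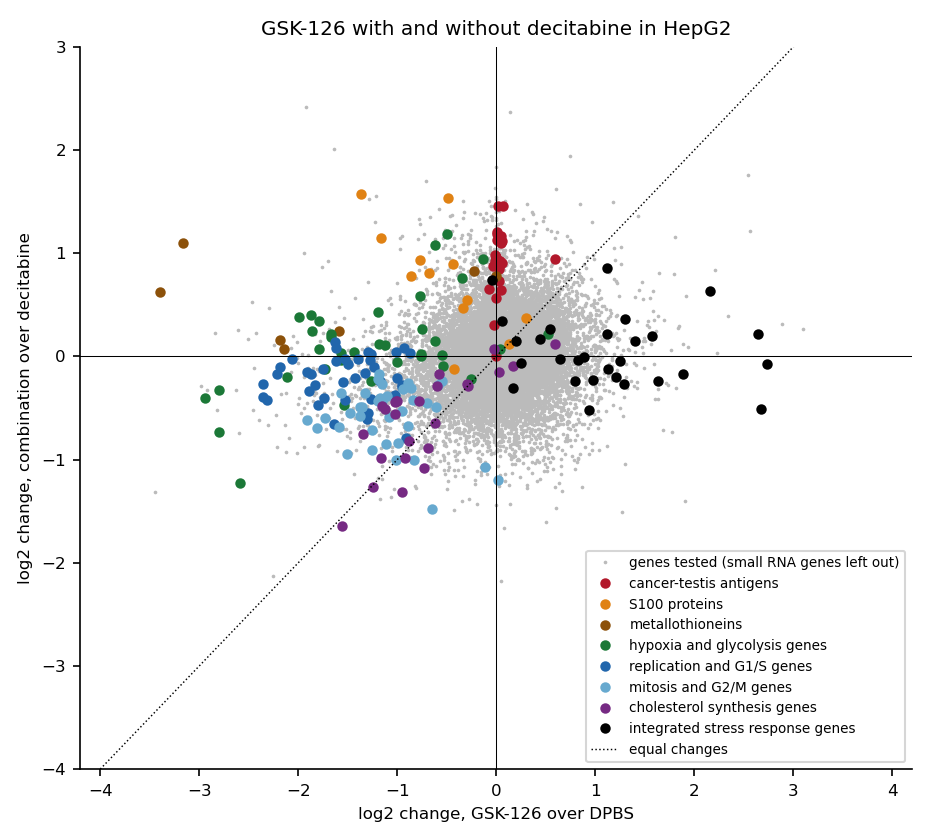
Each point is a gene, with the log2 change of GSK-126 over DPBS on the x axis and that of the combination over decitabine on the y axis, both in HepG2. Cancer-testis antigens (red) lie near 0 on the x axis and up to 1.46 on the y axis, cholesterol genes (purple) spread along the line of equal changes, and replication genes (blue), with medians of -1.52 and -0.19, lie left of it.

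In the other lines the same addition moved fewer genes. It called 3976 genes in SNU398 (20.5%), 14 of them at least 2-fold higher (0.0723%) and 8 lower (0.0413%). It called 3539 in SNU475 (18.3%), with 14 (0.0723%) and 27 (0.139%). SNU475 was harvested on day 21, so line and time differ together there. Of the 200 genes at least 2-fold higher in HepG2, 43 (21.5%) were also higher in SNU398, where 12.5% of all genes were, and 30 (15.0%) in SNU475, where 7.39% were. In the opposite direction, 9 (4.5%) of the 200 were lower in SNU398 and 32 (16%) in SNU475. Of the 252 lower genes, 1 (0.397%) was lower in SNU398 and 16 (6.35%) in SNU475, where 8.07% and 10.9% of all genes were. Small RNA genes and others under 300 bases made up 144 of the 252. In HepG2 21.7% of that class were called, beside 55.8% of all genes. The shares of all genes are therefore no like baseline for the 252, and no depletion is read from them. Of these 252, 9 (3.57%) were higher in SNU398 and 6 (2.38%) in SNU475. The difference between HepG2 and SNU398 was called for 9332 genes (48.2%), 24.4% positive and 23.8% negative, and that between HepG2 and SNU475 for 9439 (48.7%), 27% and 21.7%. The first was called for 189 of the 200 and 209 of the 252, and the second for 185 and 194. Those genes were chosen by their change in the same HepG2 libraries, which makes such calls likely, so these counts are no separate support for a line difference. Of the 45 lists, YAP targets had the most members higher in SNU398, 23 of 29, with a median of 0.26. ANKRD1 rose there by 0.94 and CYR61 by 0.54. MT2A rose by 1.23 in SNU398 and by 0.36 in SNU475. Mitosis genes had a median of 0.00 in SNU398 and 0.10 in SNU475. Early-response factors had 18 of 29 higher and 0 lower in SNU398, and 9 higher and 5 lower in SNU475.

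Transposable elements, which DNA methylation and H3K27me3 can both hold silent, mostly fell in the repeat table. Of 843 subfamilies, summed over their loci in RPM (reads relative to all reads of the library), 722 were called (85.6%), 37 higher (4.39%) and 685 lower (81.3%), with a median change of -0.58. LINE-1 subfamilies had 114 of 116 lower and 0 higher (median -1.20), and their summed RPM was 3218 and 3567 in the combination, against 7643 and 7285 in decitabine. L1MA8, an old L1 family, had 11.9 and 14.4 RPM in the combination and 49.98 and 44.4 in decitabine (-1.81 ± 0.08, over 11205 loci). L1MA4A (-1.76), L1P4 (-1.73), L1M2 (-1.69) and L1MA3 (-1.66) followed. With GSK-126 alone the L1 median was 0.59, and in the combination against decitabine it was 0.37 in SNU398 and -0.09 in SNU475.

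A smaller set rose. All 6 SVA subfamilies, composite elements of recent origin, were higher, with a median of 0.71. SVA_D had 123 and 126 RPM in the combination and 73.9 and 75.4 in decitabine (0.74 ± 0.06, over 1427 loci), and SVA_E (0.77) and SVA_B (0.74) were similar. Of 8 LTR12 and HERV9 subfamilies, whose LTRs become promoters on DNA demethylation, 5 were higher and 0 lower. The highest change belonged to HERV-Fc1-int, an endogenous retrovirus with 7 loci, at 3.31 and 2.99 in the combination and 1.03 and 0.897 in decitabine (1.32 ± 0.13). MamGyp-int (0.71) completed the 5 highest. Over loci outside gene bodies alone, 464 of 585 subfamilies were called (79.3%), 34 higher (5.81%) and 430 lower (73.5%), with 105 of 108 L1 subfamilies lower and 5 of 6 SVA subfamilies higher. L1 sequence is AT-rich and SVA and LTR12 sequence GC-rich, as general knowledge, and no repeat sequences were at hand to correct these sums for GC, so the part of the GC trend in them was not tested.

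**Figure D5:**
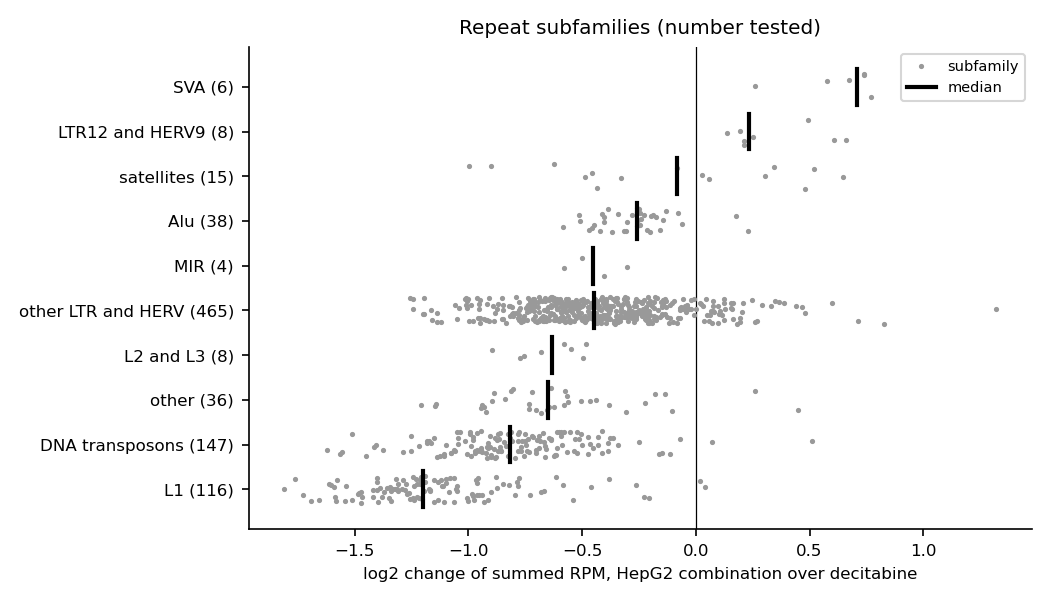
Log2 change of summed RPM, combination over decitabine (x axis), of 843 repeat subfamilies in 10 groups formed by name (rows, with the number tested), with black bars at the medians. L1 subfamilies lie around -1.20, and SVA subfamilies around 0.71 are the group with the highest median.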

How the data were processed

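Gene and repeat tables hold RPKM values that the authors deposited. Per the submitters' processing notes, reads were aligned to hg19 with HISAT2 and assigned with featureCounts. The sources used here do not give versions, annotation release, strand setting or how reads with several matches were counted. Libraries were put on one scale by the median ratio over 8211 genes with RPKM of at least 1 in all 24 libraries. Genes with RPKM of at least 0.5 in 2 libraries (19377 of 63677) were tested on log2(scaled RPKM + 0.5) with limma 3.58.1 (R 4.3.3), with trend and robust moderation, 1 mean for each of 12 groups and Benjamini-Hochberg adjustment. Called means an adjusted p under 0.05, two-sided. The fit was tested on simulated data. The unit's steps gave read numbers, of which 100% of the low values checked came out whole within 0.15 reads, and hence the depth. The count fit on these reads (limma-voom) called 9840 genes in the HepG2 comparison. Repeat values were converted to RPM and summed per subfamily, unscaled, over 4494509 loci left after simple, low-complexity and RNA repeats were removed by name.

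GC content came from the longest GENCODE 29 transcript (GRCh38, matched by gene ID, 18605 genes), and the correction, added after the data were seen, subtracts from each library a smooth curve through its median deviation over 40 GC bins. Genes of low mean level did not shape the curve but had it subtracted. No coordinates were moved between builds. The comparison, its 45 gene lists and the tests were chosen with earlier results of these data known. Named genes are EZH2, EZH1, EED, SUZ12, DNMT1, DNMT3A, DNMT3B, UHRF1 and genes chosen by rank. Among called genes with separated replicates and a mean of at least 1, these are the 14 highest and 14 lowest changes. Under the same conditions come 4 and 4 among small RNAs, and 6 and 6 by the difference from the effect of GSK-126 alone. Without those conditions, up to 3 and 3 called members of a list and 5 and 5 called repeat subfamilies are named. Lists described by counts alone are not repeated for every comparison, and lists with small or mixed changes are left out of the text. PAGE1, PAGE2, PAGE2B, MAGEA3 and GAGE12J, and the fall in CDKN1B, were singled out after their values were seen. Alternatives were the pseudocount, filter, scaling, libraries in the fit, replicate block, left-out libraries and limma-voom on the recovered reads. Replicate letters of the combination and decitabine did not pair libraries (correlation of their deviations 0.04). The value of 1 gene that the rule names is not reported here.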

Additional observations from a re-analysis of the deposited data

Results flagged for a closer look

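The effect of GSK-126 in HepG2 was tested for a difference between decitabine and DPBS cells, and 4862 genes had a positive and 5402 a negative difference. With the GC correction 5463 were positive and 4925 negative. Between lines, the addition to decitabine differed from SNU398 with 4729 genes positive and 4603 negative, and from SNU475 with 5232 positive and 4207 negative.

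The most positive differences between the 2 settings in HepG2 belonged to MT2A (4.27), MT1E (4.03), the metallothionein pseudogene MT2P1 (3.68), PLA2G2A (3.65), the sulfotransferase gene CHST15 (3.07) and HAMP, which encodes the iron hormone hepcidin (2.99). HAMP had 6.29 and 5.74 scaled RPKM in the combination and 4.27 and 3.78 in decitabine, and 0.506 and 0.770 in GSK-126 and 6.16 and 5.33 in DPBS. MT2A and MT2P1 have near-identical sequence, so reads may have been split between them. The most negative belonged to MIR4712 (-3.88), AC105381.1 (-3.59), MIR624 (-3.59), SNORD91B (-3.33), RP11-391M20.1 (-3.31) and RNU5E-1 (-3.20). MIR624 was at 0 in both combination libraries, so its fitted value is no bound.

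By list, positive and negative differences numbered 39 and 0 for replication and G1/S genes, 32 and 4 for mitosis and G2/M genes, 33 and 1 for hypoxia and glycolysis genes, 7 and 0 for metallothioneins, 10 and 0 for S100 proteins, and 22 and 0 for cancer-testis antigens. For integrated stress response genes they numbered 2 and 25. These list counts are without the GC correction, and what separates the lists was not tested.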

How the results depend on the processing

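Counts of called genes in the 4-library comparison stayed within 1.5 times of 10807 under each alternative run, but counts of at least 2-fold changes did not. With a pseudocount of 0.1 they were 575 higher and 545 lower, with 1 they were 103 and 104, and limma-voom on the recovered reads gave 1154 and 556. The GC correction, chosen after seeing the data, gave 144 lower, 143 together with the replicate block, and 103 with a further length correction. Leaving out 1 library gave 201 to 236 higher and 234 to 315 lower. The replicate block gave 10732 called genes, 199 and 250 of them at least 2-fold higher and lower. The letters did not pair the libraries.

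Leaving out 1 library gave 2545 to 2837 called genes in SNU398 and 2281 to 2560 in SNU475. The lowest came without decitabine library B in SNU398 (2545; 2639 without combination library B) and without decitabine library A in SNU475. Hepatocyte genes lower numbered 20, but 12 at a pseudocount of 0.1, 29 and 30 in fits of the 4 and of the 8 HepG2 libraries and 28 with limma-voom. Of genes with a DPBS mean under 0.1, 887 were higher and 51 lower, and 752 and 31 when the filter was passed without the 4 compared libraries. Spliceosomal snRNA genes lower numbered 24 with the GC and length correction, 26 with a filter at RPKM 1, 22 with limma-voom and 65 with nearly no filter. PRC2 genes lower numbered 5 in fits of the 4 or of the 8 HepG2 libraries and without combination library A. Outside gene bodies 464 repeat subfamilies were called and 430 lower, of fewer tested.

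Of 2226 values of 136 named genes and subfamilies under 20 settings, 2145 kept direction and call, 70 lost the call, 2 gained it and 9 changed sign. The sign changes came with the GC correction, alone or with the replicate block, in EED (0.16), APOC2 (-0.044) and E2F1 (-0.14). With the length correction added these were 0.15 in EED, -0.044 in APOC2 and -0.16 in E2F1. The causes were not tested. Genes of few reads carry more counting error in the combination, whose libraries are shallower.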
